A study of Homo sapiens with 6 samples.

Results

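The 10 genes described here are the 2 transcriptional effectors of the Hippo pathway, YAP1 and WWTR1 (the gene of TAZ), 2 of their DNA-binding partners, TEAD1 and TEAD3, the target genes CCN1, CCN2 and ANKRD1, and the pathway regulators LATS2, AMOTL1 and AMOTL2. They were taken by symbol from the 62696 genes listed in each count table, and all 10 were among the 18569 genes tested. The total RNA came from 12Z, an established line of human endometriotic epithelial cells, harvested 72 h after transfection. Cells given an siRNA against the long intergenic non-coding RNA LINC01638, labelled LINC01638_2, made up 3 libraries, and those given a commercial control siRNA made up the other 3, with replicates lettered A, B and C in each group. Both groups came from the same line and were transfected with the same lipid reagent. No second siRNA and no rescue was analysed here, so effects of the siRNA and of the loss of its target cannot be told apart. The labels do not say that the replicates were separate cultures, so p-values measure only the spread between these samples, which may be technical.

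In the Hippo pathway, the kinases STK3 and STK4 with the scaffold SAV1 activate the kinases LATS1 and LATS2 with MOB1, which phosphorylate YAP and TAZ and hold them in the cytoplasm. Unphosphorylated YAP and TAZ enter the nucleus and bind TEAD proteins, which carry them to genes such as CCN1, CCN2 and ANKRD1. LATS2, AMOTL1 and AMOTL2 are targets that also restrain YAP and TAZ, and actin tension through small GTPases is a known upstream input. RNA levels do not measure the phosphorylation or location of YAP and TAZ.

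The TEAD recognition motif CATTCC (either strand, so also GGAATG) was sought in RefSeq promoter windows on GRCh38.p14 that run from 250 bases before to 50 bases after a transcription start. Windows were listed for 8 of the 10 genes, 10 windows in all, and CCN1 and TEAD1 had no entry. The motif lay in 5 windows of 5 genes, and in 14.0% of all 35116 promoter windows of that length. The windows of the targets and regulators that held it are shown because the text below compares these genes. Sequences run 5′ to 3′ along the gene, and capitals mark the motif.
CCN2, chr6:131951323-131951622, minus strand: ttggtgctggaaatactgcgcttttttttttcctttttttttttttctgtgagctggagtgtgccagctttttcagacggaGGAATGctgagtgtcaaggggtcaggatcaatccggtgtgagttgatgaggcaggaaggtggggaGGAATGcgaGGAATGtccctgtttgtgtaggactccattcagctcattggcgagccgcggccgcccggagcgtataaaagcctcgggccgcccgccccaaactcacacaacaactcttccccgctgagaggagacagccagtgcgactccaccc
ANKRD1, chr10:90921038-90921337, minus strand: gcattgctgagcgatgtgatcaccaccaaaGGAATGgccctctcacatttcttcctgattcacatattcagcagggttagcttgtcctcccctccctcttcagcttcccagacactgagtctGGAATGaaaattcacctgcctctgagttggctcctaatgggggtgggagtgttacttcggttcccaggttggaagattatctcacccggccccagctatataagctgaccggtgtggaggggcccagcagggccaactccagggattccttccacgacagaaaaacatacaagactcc
AMOTL2, chr3:134374398-134374697, minus strand: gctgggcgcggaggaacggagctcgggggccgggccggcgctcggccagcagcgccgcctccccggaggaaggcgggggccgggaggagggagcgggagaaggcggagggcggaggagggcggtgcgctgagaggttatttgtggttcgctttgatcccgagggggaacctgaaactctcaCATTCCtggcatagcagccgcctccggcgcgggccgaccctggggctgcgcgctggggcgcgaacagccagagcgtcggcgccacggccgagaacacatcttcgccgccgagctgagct
LATS2, chr13:21061537-21061836, minus strand: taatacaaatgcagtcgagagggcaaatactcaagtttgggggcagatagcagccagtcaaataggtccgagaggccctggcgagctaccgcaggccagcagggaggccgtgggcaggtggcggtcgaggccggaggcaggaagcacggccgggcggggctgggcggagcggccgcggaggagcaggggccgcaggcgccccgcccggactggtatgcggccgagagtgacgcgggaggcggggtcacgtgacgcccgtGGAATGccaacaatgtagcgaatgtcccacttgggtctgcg
The CCN2 window held the motif 3 times, with first bases at positions -169, -104 and -95 from the start, a number that 45 of all windows (0.128%) reached or passed. The ANKRD1 window held it 2 times, at -220 and -128, where 1.37% of all windows held 2 or more. It also matched TGANTCA, a loose form of the AP-1 motif in which N is any base, with the letters TGATTCA. Both strands were searched, and 7.71% of all windows matched this loose form. AMOTL2 held it at -69 in the second of its windows, YAP1 at -162 and LATS2 at 9 bases after the start. The CArG box, the motif of SRF, was in none of the 10 windows and in 1.29% of all windows. A match describes letters in a window and shows no binding.

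The libraries held 45617234 to 58148664 counts assigned to genes. LINC01638 had 125, 103 and 123 counts with LINC01638 siRNA, against 407, 334 and 414 with control siRNA (replicates A, B and C). That was a 3.65-fold lower level (log2 fold change -1.87, SE 0.111, edgeR adjusted p = 3.73e-11), the direction the labels give. Levels below are counts relative to library size after scaling with edgeR's TMM factors (written CPM), each group is given as mean ± SD with n = 3, and adjusted p-values come from edgeR's quasi-likelihood test over all genes tested. The comparison reached much of the transcriptome: 56.0% of genes passed an adjusted p of 0.05, 26.3% higher and 29.6% lower, and 22.8% passed with a change of at least 1.5-fold. Reads outside annotated exons of the counted strand were 13.2% ± 1.67 of mapped reads with LINC01638 siRNA and 9.18% ± 0.864 with control siRNA. They include reads opposite to exons, and their part in the results below was not tested.

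Of the 10 genes, 4 rose (WWTR1, LATS2, AMOTL1 and ANKRD1), 4 fell (YAP1, TEAD1, TEAD3 and CCN2) and 2 did not pass (CCN1 and AMOTL2). That is 80% of the genes, against the 56.0% of all genes that passed. The share over all genes depends on which genes are tested. It was 67.1% under a stricter filter (mean count of 10, and 1 CPM or more in 3 libraries) and 66% in a fit on protein-coding genes only. Both fits again gave 4 of the 10 genes higher and 4 lower. ANKRD1 alone passed with a change of at least 1.5-fold, 1 of 10 against 22.8% of all genes, and the other 7 changes lay between 0.22 and 0.37 in size on the log2 scale. Levels of the groups did not overlap for 9 of the 10 genes, against 61.5% of all genes. The median log2 fold change of the 10 was 0.03, against -0.0014 over all genes. Precision was high for every one of them, with 1401 to 73581 counts per library and a coefficient of variation between replicates of 0.388% to 5.98%.

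**Figure D1:**
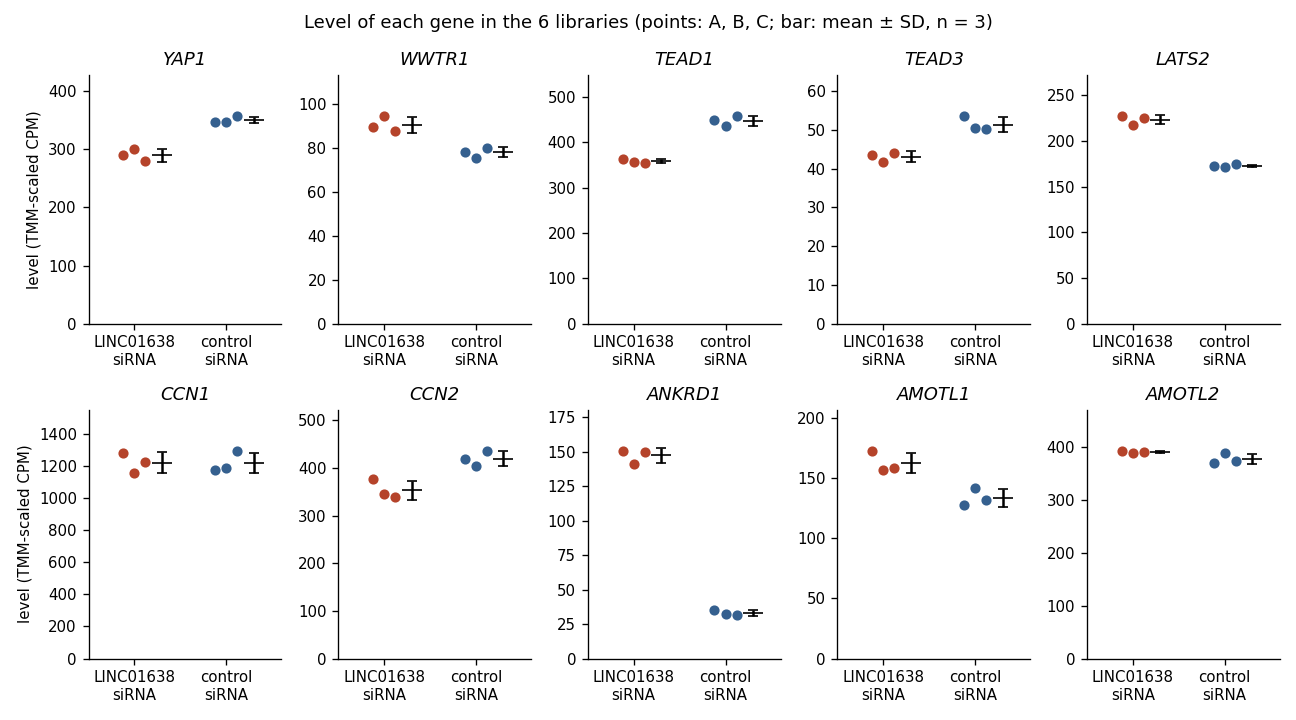
Levels in TMM-scaled CPM of the 10 genes, 3 LINC01638 siRNA libraries (left, red) and 3 control siRNA libraries (right, blue) in each panel, with points for replicates A, B and C and bars for mean ± SD. ANKRD1 stands at 147 ± 5.22 CPM with LINC01638 siRNA and 33.1 ± 1.98 CPM with control siRNA, whereas the 2 groups of CCN1 overlap.

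The effectors moved in opposite directions. YAP1 (chromosome 11, 102110461 to 102233423, plus strand), the transcriptional coactivator at the end of the kinase cascade, stood at 289, 301 and 279 CPM with LINC01638 siRNA, against 347, 347 and 356 CPM with control siRNA. Every LINC01638 siRNA library was below every control library. YAP1 averaged 289.6 ± 11.0 CPM with LINC01638 siRNA and 350.1 ± 5.58 CPM with control siRNA, a 1.21-fold lower level (log2 fold change -0.27, SE 0.049, edgeR adjusted p = 9.08e-05). WWTR1 (chromosome 3, 149517235 to 149736714, minus strand), which encodes the paralogous coactivator TAZ, stood at 89.8, 94.5 and 87.6 CPM with LINC01638 siRNA, against 78.4, 75.6 and 80.1 CPM with control siRNA. Here every LINC01638 siRNA library was above every control library, and the rise was 1.16-fold (log2 fold change 0.22, SE 0.049, edgeR adjusted p = 9.31e-04).

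The ratio of WWTR1 to YAP1 counts within a library does not depend on scaling between libraries. It was 0.311, 0.314 and 0.314 with LINC01638 siRNA, against 0.226, 0.218 and 0.225 with control siRNA. The ratio was thus 1.40-fold higher with LINC01638 siRNA (difference 0.49 on the log2 scale, exact two-sided permutation p = 0.1, which is as small as 6 libraries in these groups can give; 0.125 after Benjamini-Hochberg adjustment over the 5 paralogue ratios computed, as for each ratio below with p = 0.1). Per exon length, in length-scaled units whose total is the same in every library (TPM), WWTR1 made up 19.0% ± 0.0977 of the summed level of the pair with LINC01638 siRNA and 14.3% ± 0.227 with control siRNA, so YAP1 remained the larger part in all 6 libraries.

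TEAD1 and TEAD3 both fell, and their paralogues TEAD2 and TEAD4 did not pass. TEAD1 (chromosome 11, 12674591 to 12944483, plus strand), the founding member of this family of DNA-binding factors, stood at 363, 356 and 355 CPM with LINC01638 siRNA, against 449, 435 and 457 CPM with control siRNA. The groups were well apart, lower with LINC01638 siRNA (log2 fold change -0.32, SE 0.049, edgeR adjusted p = 1.28e-05). TEAD3 (chromosome 6, 35473597 to 35497076, minus strand) stood at 43.6, 41.6 and 44.1 CPM with LINC01638 siRNA, against 53.5, 50.4 and 50.1 CPM with control siRNA. Its fall of 1.19-fold (log2 fold change -0.25, SE 0.053, edgeR adjusted p = 4.48e-04) was close to that of TEAD1 in size. The ratio of TEAD3 to TEAD1 counts was 0.120, 0.117 and 0.124 with LINC01638 siRNA, against 0.119, 0.116 and 0.110 with control siRNA, and these ranges overlapped (difference 0.07 on the log2 scale, exact two-sided permutation p = 0.2).

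TEAD2 averaged 36.1 ± 0.708 CPM with LINC01638 siRNA and 34.1 ± 2.30 CPM with control siRNA (log2 fold change 0.08, edgeR adjusted p = 0.264), and scaling by library totals alone brought it past the threshold (0.18, adjusted p = 0.0150). TEAD4 averaged 53.6 ± 2.61 CPM with LINC01638 siRNA and 55.2 ± 1.78 CPM with control siRNA (log2 fold change -0.04, edgeR adjusted p = 0.522), and its sign turned under 2 of the scalings tried. As shares of the summed TPM of the 4 TEAD genes, TEAD1 had 41.1% ± 0.585 with LINC01638 siRNA and 45.3% ± 0.972 with control siRNA. TEAD3 likewise had a lower share with LINC01638 siRNA, 16.7% ± 0.285 against 17.5% ± 0.380 with control siRNA. TEAD2 had a higher share with LINC01638 siRNA (14.3% ± 0.527) than with control siRNA (11.9% ± 0.498), and so had TEAD4 (27.8% ± 0.860 with LINC01638 siRNA and 25.3% ± 0.576 with control siRNA). None of these 4 shares overlapped between the groups.

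The 3 target genes used most often as readouts of YAP and TAZ went 3 different ways. ANKRD1 (chromosome 10, 90912096 to 90921276, minus strand), a cardiac ankyrin repeat protein and a standard YAP target in cultured cells, stood at 151, 141 and 150.2 CPM with LINC01638 siRNA, against 35.4, 32.1 and 31.9 CPM with control siRNA. These rest on 8220, 7346 and 9032 counts with LINC01638 siRNA and 1888, 1401 and 1693 counts with control siRNA. No other gene of the 10 separated the groups so far: the rise was 4.45-fold (95% interval 4.13 to 4.79; log2 fold change 2.15, SE 0.055, edgeR adjusted p = 8.17e-16). Over all genes tested, 140 had a log2 fold change as high, ANKRD1 included, and of the 10864 genes that averaged 5 CPM or more, 5 had.

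CCN2 (chromosome 6, 131948176 to 131951373, minus strand), the secreted matricellular protein once called CTGF, stood at 376, 345 and 339 CPM with LINC01638 siRNA, against 419, 405 and 435 CPM with control siRNA. All 3 LINC01638 siRNA libraries were lower than the lowest control library. The fall was 1.19-fold (log2 fold change -0.25, SE 0.054, edgeR adjusted p = 5.89e-04). CCN1 (chromosome 1, 85580761 to 85583962, plus strand), the related matricellular protein once called CYR61, stood at 1283, 1156 and 1224 CPM with LINC01638 siRNA, against 1175, 1189 and 1292 CPM with control siRNA. The groups overlapped, and their means were 1221 ± 63.7 CPM with LINC01638 siRNA and 1219 ± 64.0 CPM with control siRNA. The test did not pass (log2 fold change 0.0025, edgeR adjusted p = 0.975), its sign turned under several settings, and the 95% interval of the fold ran from 0.924 to 1.09.

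The ratio of CCN2 to CCN1 counts was 0.293, 0.299 and 0.277 with LINC01638 siRNA, against 0.356, 0.340 and 0.337 with control siRNA. The ranges were separate, with a difference of -0.25 on the log2 scale (exact two-sided permutation p = 0.1, the smallest possible). Among the genes whose promoter windows are printed above, CCN2, with the motif 3 times, fell, ANKRD1, with the motif 2 times, rose, LATS2, with the motif once, rose, and AMOTL2, with it once, did not pass. YAP1, whose window also held the motif, fell. Of the genes whose windows held no motif, WWTR1 and AMOTL1 rose and TEAD3 fell.

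**Figure D2:**
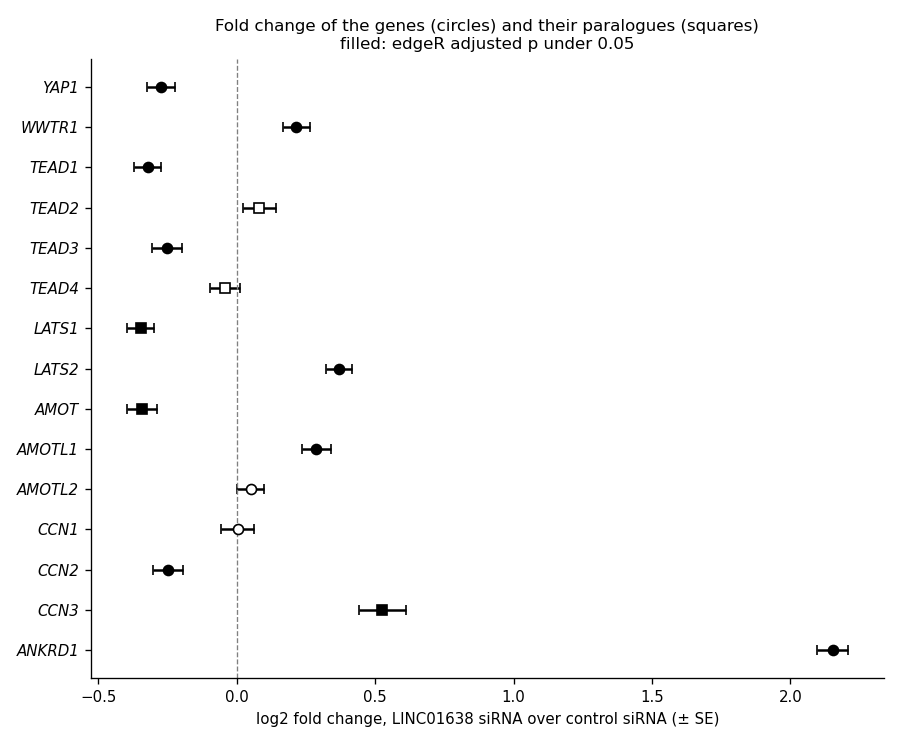
Log2 fold change (LINC01638 siRNA over control siRNA, bars ± SE) of the 10 genes (circles) and of the paralogues TEAD2, TEAD4, LATS1, AMOT and CCN3 (squares), filled where the edgeR adjusted p is under 0.05. ANKRD1 lies at 2.15, CCN1 at 0.00, and the other 8 of the 10 genes lie within 0.37 of 0 on either side.

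Within each family, the paralogues of the targets were far less abundant than the targets. CCN3 (once NOV) rose to 25.8 ± 3.32 CPM with LINC01638 siRNA, against 18.0 ± 1.41 CPM with control siRNA (log2 fold change 0.53, SE 0.085, edgeR adjusted p = 3.93e-05). CCN4 (once WISP1) fell on low counts, 42, 29 and 26 with LINC01638 siRNA and 80, 64 and 111 with control siRNA (log2 fold change -1.53, SE 0.240, edgeR adjusted p = 1.78e-05). CCN5 had 5, 4 and 11 counts with LINC01638 siRNA and 18, 8 and 15 with control siRNA, and its call (log2 fold change -1.17, edgeR adjusted p = 0.0425) was lost under 8 of 14 alternatives, including without LINC01638 siRNA replicate A (adjusted p = 0.127) or B (0.141). CCN6 had 0 counts in every library and was not tested. Within the family of CCN1 to CCN6, CCN1 and CCN2 held 75.6% and 22.9% of the summed TPM with LINC01638 siRNA, and 72.7% and 26.3% with control siRNA. ANKRD2 and ANKRD23, the other muscle ankyrin repeat genes tested, did not pass (edgeR adjusted p = 0.752 and 0.348) and had 12 to 36 counts per library, so ANKRD1 made up 99.3% of the summed TPM of the 3 with LINC01638 siRNA and 97.0% with control siRNA.

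Of the regulators that are themselves targets, LATS2 and AMOTL1 rose and AMOTL2 did not pass. LATS2 (chromosome 13, 20973032 to 21061547, minus strand), a kinase that phosphorylates YAP and TAZ, stood at 227, 218 and 225 CPM with LINC01638 siRNA, against 172, 172 and 174 CPM with control siRNA. The replicates were tight and the groups apart, with a rise of 1.29-fold (log2 fold change 0.37, SE 0.046, edgeR adjusted p = 9.71e-07). Its paralogue LATS1 fell, at 54.2, 57.1 and 54.9 CPM with LINC01638 siRNA against 68.1, 71.6 and 71.8 CPM with control siRNA (log2 fold change -0.35, SE 0.050, edgeR adjusted p = 6.00e-06). The ratio of LATS2 to LATS1 counts was therefore 4.19, 3.81 and 4.09 with LINC01638 siRNA, against 2.53, 2.40 and 2.43 with control siRNA (difference 0.72 on the log2 scale, exact two-sided permutation p = 0.1, the smallest possible). Of the 5 ratios between paralogues computed, this one differed most. LATS2 held 86.2% ± 0.588 of the summed TPM of the 2 kinases with LINC01638 siRNA and 79.2% ± 0.447 with control siRNA.

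AMOTL1 (chromosome 11, 94706431 to 94876753, plus strand), a junctional scaffold of the angiomotin family that binds YAP and TAZ, stood at 173, 157 and 159 CPM with LINC01638 siRNA, against 128, 142 and 132 CPM with control siRNA. The groups did not overlap, and the rise was 1.22-fold (log2 fold change 0.29, SE 0.053, edgeR adjusted p = 1.08e-04). AMOTL2 (chromosome 3, 134355874 to 134375479, minus strand), a second angiomotin, stood at 392, 389 and 389.9 CPM with LINC01638 siRNA, against 370.1, 388 and 373 CPM with control siRNA. These ranges were separate by a narrow margin, yet the test did not pass (log2 fold change 0.05, SE 0.049, edgeR adjusted p = 0.407), with a 95% interval of the fold from 0.969 to 1.11. Scaling by library totals alone gave AMOTL2 a log2 fold change of 0.15 and an adjusted p of 0.0107. AMOT, the founding member of the family, fell to 62.4 ± 3.42 CPM with LINC01638 siRNA, against 79.1 ± 3.80 CPM with control siRNA (log2 fold change -0.34, SE 0.054, edgeR adjusted p = 2.04e-05). By share of the family's summed TPM, AMOTL1 had 18.3% ± 0.669 with LINC01638 siRNA and 15.5% ± 0.333 with control siRNA. AMOT had 8.26% ± 0.351 with LINC01638 siRNA and 10.9% ± 0.212 with control siRNA, and AMOTL2 had 73.5% ± 0.888 with LINC01638 siRNA and 73.6% ± 0.513 with control siRNA. The AMOTL2 to AMOTL1 count ratio was lower with LINC01638 siRNA (2.27, 2.48 and 2.46) than with control siRNA (2.90, 2.74 and 2.84), with an exact two-sided permutation p of 0.1.

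**Figure D3:**
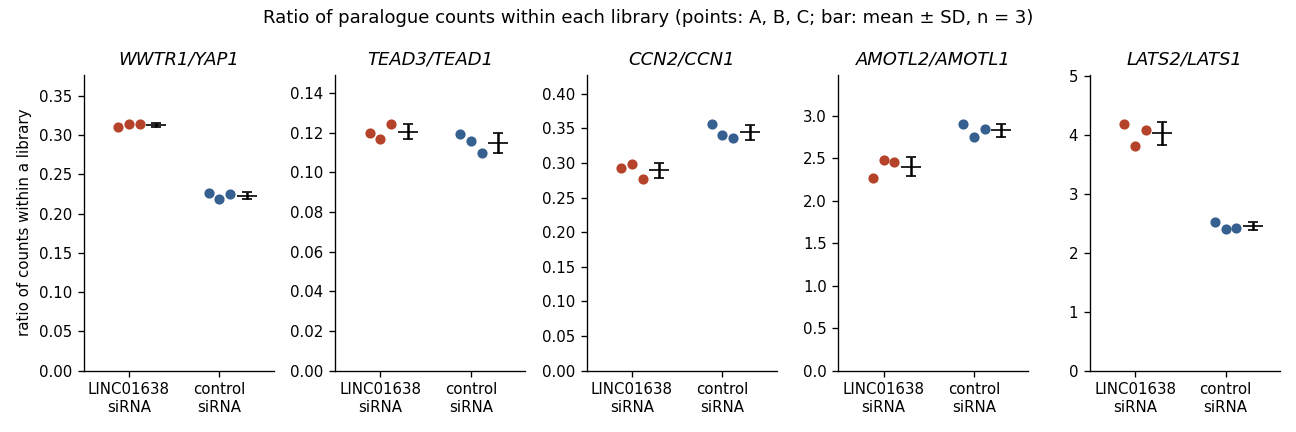
Ratio of the counts of 2 paralogues within each library for 5 pairs, LINC01638 siRNA libraries on the left (red) and control siRNA libraries on the right (blue), with points for replicates and bars for mean ± SD (n = 3). WWTR1/YAP1 and LATS2/LATS1 are higher with LINC01638 siRNA, CCN2/CCN1 and AMOTL2/AMOTL1 are lower, and the TEAD3/TEAD1 ranges overlap.

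Read coverage on the strand opposite to these genes was low. It made up at most 0.794% of the counts on both strands in any library for the genes other than TEAD3, where it was 1.59% to 4.38%. Annotated features on the same strand lie within WWTR1, TEAD1, AMOTL2 and LATS2, and reads that fall on several genes were not counted for any of them.

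Levels of different genes were compared per exon length, in TPM, within a group. With LINC01638 siRNA the order was CCN1 (1404 ± 109 TPM), CCN2 (426 ± 36.9), ANKRD1 (210.1 ± 11.4), AMOTL2 (184 ± 6.15), YAP1 (129.8 ± 6.55), LATS2 (113 ± 5.10), TEAD1 (98.2 ± 4.18), AMOTL1 (45.8 ± 3.77), TEAD3 (39.9 ± 1.83) and WWTR1 (30.4 ± 1.44). With control siRNA it was CCN1 (1229.8 ± 72.4 TPM), CCN2 (444 ± 15.1), AMOTL2 (156 ± 6.96), YAP1 (138 ± 3.49), TEAD1 (108 ± 2.29), LATS2 (76.7 ± 1.56), TEAD3 (41.7 ± 0.909), ANKRD1 (41.5 ± 1.78), AMOTL1 (33.0 ± 2.41) and WWTR1 (23.0 ± 0.567). ANKRD1 therefore held rank 3 with LINC01638 siRNA and rank 8 with control siRNA, and LATS2 stood above TEAD1 with LINC01638 siRNA and below it with control siRNA, on this measure of length. In the control libraries the levels of TEAD3 (40.8 to 42.6 TPM) lay within those of ANKRD1, so these neighbours were not distinct. Because TPM total the same in each library, differences between groups are read from CPM and not from TPM. In TPM the groups overlapped for YAP1, TEAD3 and CCN2. CCN1 lay at 1312 to 1524 TPM with LINC01638 siRNA and 1161 to 1305.5 TPM with control siRNA, without overlap. For these genes the separation of the groups therefore depends on the unit. With the longest annotated transcript as the length, 8 of the 20 ranks moved by 1 place. With LINC01638 siRNA, ANKRD1 then held rank 4, behind AMOTL2, and LATS2 (rank 7) stood below TEAD1 (rank 6), so the order of LATS2 and TEAD1 depends on the length used. CCN1 and CCN2 remained at the top in both groups.

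**Figure D4:**
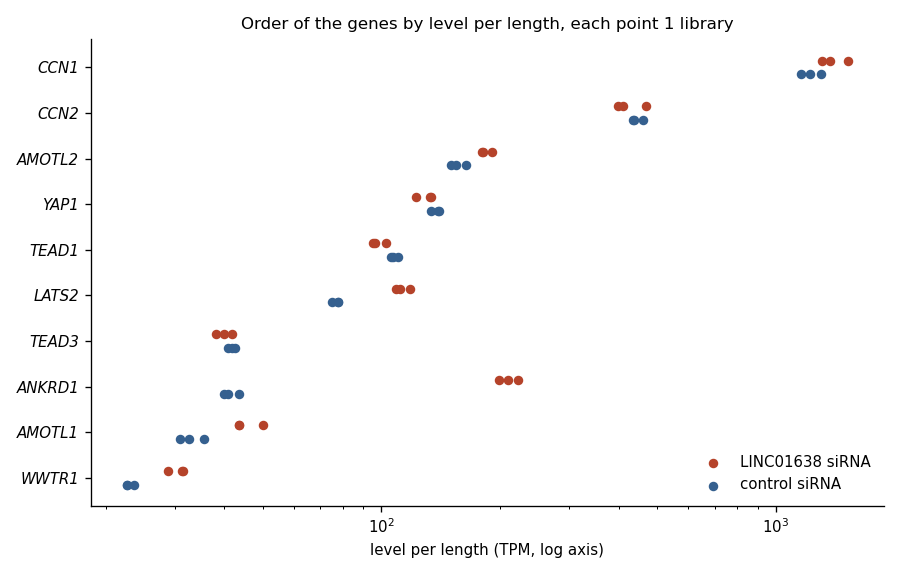
Level per exon length (TPM, log axis) of the 10 genes in each library, LINC01638 siRNA (red, upper row of each gene) and control siRNA (blue, lower row), sorted by the control mean. The order is to be read within a group: ANKRD1 lies between 199 and 222 TPM with LINC01638 siRNA and at or below 43.4 TPM with control siRNA.

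For each gene the 3 genes with the most similar levels over the 6 libraries were sought among the 9644 genes that averaged 10 CPM or more, by Euclidean distance between log2 CPM taken relative to the control mean. The nearest to ANKRD1 were SERPINB9 (distance 0.621, log2 fold change 1.81), CDKN1A (0.679, 1.80) and SERPINB2 (0.787, 2.32). Every other gene of the 10 had its nearest neighbours at a distance of 0.0905 or less. The distance includes the size of the change, and few genes changed as much as ANKRD1, so its larger distances largely restate its fold change. YAP1 lay nearest to PCYT1A, CEP78 and ETFDH, and WWTR1 to HACE1, AEBP2 and SMARCAD1. TEAD1 lay nearest to GINS4, KIF2A and MTA1, and TEAD3 to FAM50A, RBIS and TLE5. CCN1 lay nearest to DMD, UVSSA and GXYLT2, and CCN2 to MMAB, ZNRD2 and C11orf24. The regulator AMOTL1 lay nearest to BRPF1, SUPT6H and TSC1, AMOTL2 to DHX8, PRRC2A and NAA35, and LATS2 to SSBP3, RAB3GAP2 and NEDD4L.

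Genes rose and fell in each of 7 lists that cover the rest of the pathway, none of them chosen independently of these data. The shares of all genes set beside the lists are over all 18569 genes tested, where 56.0% passed in either direction. Under the stricter filter 67.1% passed, so part of each contrast depends on which genes are tested. In the Hippo kinase cassette, 7 of 18 tested genes rose, 7 fell and 4 did not pass, with a median log2 fold change of -0.09. That is 38.9% higher and 38.9% lower, against 26.3% and 29.6% of all genes. SAV1, the scaffold of the upstream kinases, fell to 37.5 ± 2.05 CPM with LINC01638 siRNA against 69.1 ± 3.08 CPM with control siRNA (log2 fold change -0.88). MOB1A, the coactivator of the LATS kinases, rose to 414 ± 20.8 CPM with LINC01638 siRNA against 223 ± 15.9 CPM with control siRNA (0.89), and the upstream kinase gene STK3 rose to 41.5 ± 0.960 CPM with LINC01638 siRNA against 24.7 ± 0.930 CPM with control siRNA (0.75). STK38, a kinase related to LATS1 and LATS2, fell to 97.2 ± 1.43 CPM with LINC01638 siRNA against 137 ± 2.11 CPM with control siRNA (-0.49). Among membrane and scaffold activators, 9 of 23 rose, 8 fell and 6 did not pass (median 0.10), 39.1% higher and 34.8% lower against 26.3% and 29.6% of all genes. The STK3 and STK4 binding proteins RASSF1 (log2 fold change 0.87) and RASSF5 (0.85) and the Crumbs-complex scaffold PATJ (0.63) rose, and the polarity gene LLGL1 fell (-0.55).

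Among the genes of the STRIPAK phosphatase complex and other kinase antagonists, 6 of 18 rose, 8 fell and 4 did not pass (median -0.05), 33.3% higher and 44.4% lower against 26.3% and 29.6% of all genes. With library totals as the scale, 9 were higher and 7 lower, so the balance of directions in this list depends on the scaling. PPP2CA, a catalytic subunit of phosphatase PP2A, fell to 8.23 ± 1.12 CPM with LINC01638 siRNA against 18.8 ± 1.03 CPM with control siRNA (log2 fold change -1.20). The striatin gene STRN (-0.38) and the LATS-binding LIM protein gene AJUBA (-0.38) also fell, and the STRIPAK component FGFR1OP2 rose (0.60). Among nuclear partners and repressors, 10 of 21 rose, 7 fell and 4 did not pass (median 0.08), 47.6% higher and 33.3% lower against 26.3% and 29.6% of all genes. VGLL4, which competes with YAP for TEAD proteins, rose to 86.7 ± 0.533 CPM with LINC01638 siRNA against 45.3 ± 2.18 CPM with control siRNA (log2 fold change 0.94). VGLL3, another TEAD cofactor, fell in every LINC01638 siRNA library below every control library (-1.03). The YAP-binding factor gene TP73 rose at a low level (1.16), and YWHAH, one of the 14-3-3 proteins that retain phosphorylated YAP, fell (-0.64).

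A list of 32 other YAP and TAZ targets showed 10 genes higher, 17 lower and 5 not passing, 31.2% higher and 53.1% lower against 26.3% and 29.6% of all genes, with a median of -0.24 against -0.0014 over all genes. The receptor tyrosine kinase gene AXL fell to 419 ± 23.0 CPM with LINC01638 siRNA against 959 ± 60.9 CPM with control siRNA (log2 fold change -1.19). VGLL3 is in this list too, and the focal adhesion adaptor TGFB1I1 (-0.998) and MYC (-0.72) fell as well. In a list of cytoskeletal targets of SRF and its cofactors MRTFA and MRTFB, which share inputs with YAP and TAZ, 14 of 21 fell, 6 did not pass and 1 rose, where 2 to 4 rose under 4 other settings (median -0.45). Thus 66.7% of the list was lower, against 29.6% of all genes, and 4.76% higher, against 26.3%. Its leading genes were TAGLN, an actin-binding protein, at 29.1 ± 0.494 CPM with LINC01638 siRNA against 68.7 ± 7.19 CPM with control siRNA (-1.24), TGFB1I1, the tropomyosin gene TPM1 (-0.82) and the actin gene ACTG1 (-0.87), whose reads can be shared with near-identical copies. The gene that rose was ACTA2 (0.85), named here after its value was seen. Among small GTPases and other actin inputs, 9 of 17 fell, 3 rose and 5 did not pass (median -0.14), 52.9% lower and 17.6% higher against 29.6% and 26.3% of all genes. The leading genes were RHOB at 129.9 ± 2.30 CPM with LINC01638 siRNA against 509 ± 41.9 CPM with control siRNA (-1.97), RHOC (-0.80) and the kinases LIMK1 (-0.62) and MYLK (-0.55).

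**Figure D5:**
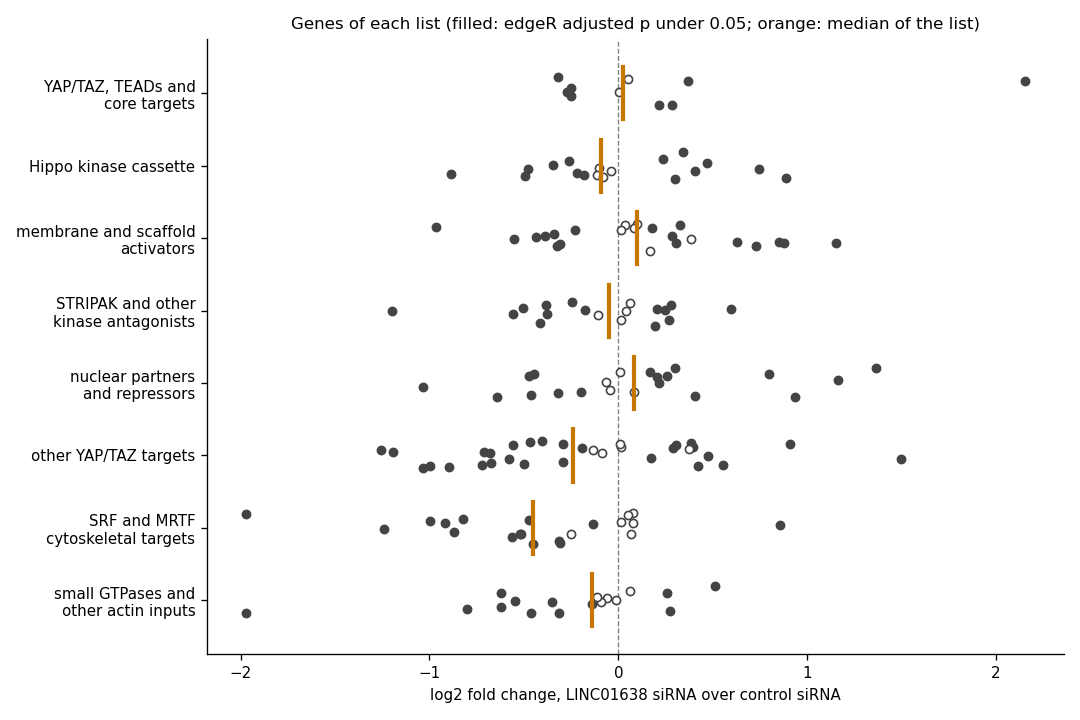
Log2 fold change (LINC01638 siRNA over control siRNA) of each tested gene of the 10 and of 7 pathway lists, filled where the edgeR adjusted p is under 0.05, with the median of each list as an orange line (vertical position within a list is arbitrary). The medians lie between -0.45 for SRF and MRTF targets and 0.10 for membrane and scaffold activators, and ANKRD1 at 2.15 is the point farthest to the right.

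Marker genes were read beside these results, and their part in them was not tested. In bulk RNA, fewer cells of a type and less RNA per cell cannot be told apart. The 8 epithelial markers summed to 3198 to 3724 CPM with LINC01638 siRNA and 5198 to 5642 CPM with control siRNA, with 7 lower and EPCAM higher. EPCAM (1.38 CPM with LINC01638 siRNA, 0.377 CPM with control siRNA) and CDH1 (3.58 CPM with LINC01638 siRNA, 8.14 CPM with control siRNA) were low in both groups, while the keratin genes KRT8, KRT18 and KRT19 were high. The 6 stromal fibroblast markers summed to 3510 to 3774 CPM with LINC01638 siRNA and 4634 to 5548 CPM with control siRNA, 5 of them lower and 1 higher. The 4 mesothelial markers, all lower, summed to at most 133 CPM with LINC01638 siRNA and at least 248 CPM with control siRNA. Of all genes, 29.6% were lower and 26.3% higher. Single genes made up most of some sums: COL1A1 (3107 CPM with LINC01638 siRNA, 4490 CPM with control siRNA) for fibroblasts, WT1 for mesothelium and SMTN for smooth muscle. Since ANKRD1 is a known heart gene, 8 cardiac muscle markers were included: their sum was 0.440 to 0.815 CPM with LINC01638 siRNA and 0.435 to 0.547 CPM with control siRNA. Of these, 7 had a mean count under 10 and were not tested, and ACTC1 did not pass (edgeR adjusted p = 0.0546). Smooth muscle markers (4 genes, 1 higher and 1 lower) summed to 67.2 to 73.4 CPM with LINC01638 siRNA and 83.8 to 87.0 CPM with control siRNA. Endothelial markers (4 genes, 2 higher and 1 lower) summed to 10.3 to 12.4 CPM with LINC01638 siRNA and 12.6 to 15.3 CPM with control siRNA. Immune markers (4 genes, CD3E at 0 counts in every library) summed to 0.366 to 0.516 CPM with LINC01638 siRNA and 0.319 to 0.618 CPM with control siRNA.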

How the data were processed

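The values used are counts of reads per gene, deposited by the authors as 1 table per library, as whole numbers without normalization. Per the labels' protocols, ribosomal RNA was depleted and the library kit was directional, and per the submitters' processing notes STAR 2.7.10b, R 4.2.1 and the GRCh38 genome were used. Not given in the sources used here: annotation release, mapping settings. The reverse-strand column was used, since it fits the kit and holds most reads. Reads mapping to several places are listed as 0, so a gene with near-identical copies has only its uniquely placed reads. The rows without a gene were left out of all totals and tests. They held unmapped reads (13.0% ± 0.0422 of fragments with LINC01638 siRNA, 12.3% ± 0.351 with control siRNA) and reads outside exons of the counted strand (values in the report). Reads shared by several genes were also there (7.17% ± 0.163 of those mapped with LINC01638 siRNA, 7.49% ± 0.243 with control siRNA).

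Groups and replicate letters came from titles and treatment labels. Symbols were found for 61918 genes by full identifier and for 754 by identifier without version. Positions and exon lengths came from GENCODE 29 on GRCh38 (58225 genes), which may not be the counting release, and promoters from RefSeq. Counts were filtered with filterByExpr (minimum count 10, minimum total 15), scaled by TMM and tested with edgeR 4.0.16 (quasi-likelihood F test, robust, group as the only term) in R 4.3.3, with Benjamini-Hochberg adjustment over 18569 genes and a threshold of 0.05. The common biological coefficient of variation was 5.62%. SE was obtained from the log2 fold change and the F statistic, and 95% intervals are the estimate ± the normal quantile times SE. TPM were computed from these counts and exon lengths. Ratios between paralogues, with 0.5 added to each count on the log2 scale, and shares were compared with exact permutation tests (scipy 1.17.1). No batch is given in the labels.

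The members and gene lists were chosen with earlier results of these data known. The named genes are the 10 genes, LINC01638, RHOB, HDAC1, the paralogues, for each list up to 4 genes that passed, by smallest p, or where none did up to 2 of the highest level, and the 3 nearest genes to each member. LINC01638 served to check the labels. HDAC1 rose (log2 fold change 1.06) and RHOB fell, but the labels give no direction for either, so they do not check the labels. Alternatives were other scalings, DESeq2 1.42.0, limma 3.58.1, other filters, counts without regard to strand, a fit on protein-coding genes alone, the replicate block and leaving out each library. The test was checked on simulated data with 200 changed genes. That is far fewer than passed here, so the check does not cover a change in most genes. Same-letter libraries did not deviate together (correlations -0.12, -0.05 and -0.01 for A, B and C), so the letters were not taken as pairs.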

Additional observations from a re-analysis of the deposited data

Results flagged for a closer look

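Reads on the strand opposite to TEAD3, outside the counts used above, averaged 1.61 CPM with LINC01638 siRNA and 1.14 CPM with control siRNA, from 80, 99 and 88 counts with LINC01638 siRNA against 46, 56 and 68 counts with control siRNA (replicates A, B and C). Reads on the strand opposite to ANKRD1 averaged 0.195 CPM with LINC01638 siRNA and 0.0806 CPM with control siRNA, from 12, 12 and 8 counts with LINC01638 siRNA against 6, 4 and 2 counts with control siRNA. They are listed because the level with LINC01638 siRNA lay above every control library in data that the comparisons do not use. No gene is annotated on the opposite strand of either one in GENCODE 29. The difference was not tested. Set against the counts on both strands, the opposite share at ANKRD1 was 0.0885% to 0.163% with LINC01638 siRNA and 0.118% to 0.317% with control siRNA, and at TEAD3 it was 3.21% to 4.38% with LINC01638 siRNA and 1.59% to 2.49% with control siRNA.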

How the results depend on the processing

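Counts of calls and log2 fold changes were recomputed under up to 17 alternatives (14 for CCN5 and 16 for ANKRD2, ANKRD23 and LINC01638, which some filters or fits left out), and the TPM ranks under the longest transcript as length. Of the 10 genes, 8 (all but CCN1 and AMOTL2) kept their direction and their side of the threshold in all 17, and 163 of 170 values did so. Among the other named genes, 612 of 623 values did. CCN1 turned sign without a filter (log2 fold change -0.00995) and in the column without strand (-0.0412), and ranged from -0.0360 to 0.0467 when 1 library was left out, and the smallest adjusted p over its alternatives was 0.146. TEAD4 turned sign with library totals (0.0595) and with upper-quartile factors (0.0079), and it did not pass in either. Scaling by library totals shifted the median of all genes by 0.10 and made 59.7% of calls higher (6349 higher and 4288 lower), against 47.0% under TMM. The count of SRF and MRTF targets that rose, 1 under TMM, was 4 with library totals and 2 with upper-quartile factors, the stricter filter (mean count of 10, and 1 CPM or more in 3 libraries) and protein-coding genes only. The count of further CCN genes that fell, 2 under TMM, was 1 with library totals, upper-quartile factors, DESeq2's Wald test, no filter, the stricter filter, the replicate block and the column without strand, and 1 to 2 when 1 library was left out, since CCN5 lost its call or was not tested. The replicate block gave 4676 genes higher and 5286 lower, and 4 and 4 of the 10 genes, so it changed no other call here. Ratios between paralogues kept their direction in the 8 alternatives run for them (the column without strand, the replicate block and each library left out). With at least 1401 counts per library, depth did not limit the 10 genes, whereas CCN4, CCN5, ANKRD2 and ANKRD23 rest on few counts.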

Other observations

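Some genes of the lists that the naming rule did not take are given here, chosen after their values were seen. Tissue factor (F3), a YAP and TAZ target, fell to 15.7 ± 3.15 CPM with LINC01638 siRNA, against 37.4 ± 2.35 CPM with control siRNA, and IGFBP3, an insulin-like growth factor binding protein, to 22.6 ± 0.886 CPM with LINC01638 siRNA against 36.2 ± 1.37 CPM with control siRNA. NUAK1, a kinase of the AMPK-related family, rose to 74.2 ± 3.70 CPM with LINC01638 siRNA, against 50.5 ± 2.17 CPM with control siRNA (log2 fold change 0.55, SE 0.054, edgeR adjusted p = 3.47e-08). Thrombospondin (THBS1) stood at 298 ± 39.3 CPM with LINC01638 siRNA and 296 ± 36.3 CPM with control siRNA and did not pass (edgeR adjusted p = 0.953).

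Upstream, the tumour suppressor NF2 rose to 361 ± 10.0 CPM with LINC01638 siRNA, against 296 ± 7.01 CPM with control siRNA, and PTPN14, a phosphatase that binds YAP, to 545 ± 36.6 CPM with LINC01638 siRNA against 442 ± 24.2 CPM with control siRNA (log2 fold changes 0.28 and 0.30, edgeR adjusted p = 5.39e-05 and 1.84e-04). TPM4, another tropomyosin of the SRF list, fell to 157, 205 and 145 CPM with LINC01638 siRNA, against 692, 642 and 649 CPM with control siRNA (log2 fold change -1.97, edgeR adjusted p = 2.97e-06). SRF itself stood at 76.7 ± 3.79 CPM with LINC01638 siRNA and 73.2 ± 3.56 CPM with control siRNA and did not pass (edgeR adjusted p = 0.285).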
